A study of Mus musculus with 3 samples.

Results

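The genes described here are 10 inflammasome and interleukin-1 (IL-1) family genes, Il1a, Il1b, Il1rn, Il1r2, Il18, Il18bp, Nlrp3, Casp1, Pycard and Gsdmd. They were chosen by name, and all 10 had a row among the 32285 genes of the deposited matrices. The study profiled single CD45+ cells, that is leukocytes, from mouse aorta with its adventitia, as 3 droplet libraries with 1 library for each group. All mice were ApoE-/- on C57BL/6J, a strain prone to atherosclerosis because it lacks the lipoprotein ligand Apoe. The Ctrl library came from ApoE-/- mice labelled as the control, the HHcy library from ApoE-/- mice that drank water with 1.8 g/L homocysteine for 4 weeks, and the WD library from ApoE-/- mice fed a western diet for 4 weeks. Live, Hoechst+ CD45+ cells were sorted from the digested tissue. The age of the mice, the control diet and the number of mice behind each library are not given in the sources used here, so no difference between libraries has a replicate check. Cell classes were rebuilt for this work from marker genes, because no deposited cell annotation was used. The members and the other genes of their pathway were kept out of the genes that defined the clusters.

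IL-1 signalling is the early alarm of innate immunity. Il1a and Il1b encode the agonists IL-1alpha and IL-1beta, Il1rn encodes the receptor antagonist that competes with them, and Il1r2 encodes a decoy receptor without a signalling domain. IL-1beta and IL-18 are made as inactive precursors: a sensor such as NLRP3 assembles with the adaptor ASC (Pycard) and caspase-1 (Casp1), which cleaves both precursors and gasdermin D (Gsdmd), the protein that forms the membrane pore. Il18bp encodes a secreted protein that binds IL-18. Myeloid cells of the atherosclerotic artery wall are a known source of IL-1beta. Transcript levels, which are what these libraries measure, do not show cleavage, assembly or release.

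Il1a and Il1b, Il1rn and Nlrp3 are shown as the agonists, their antagonist and the sensor. The 250 bases before the most upstream RefSeq start of each are shown so that these genes can be compared at their control regions. They are from RefSeq on build GRCm38.p6, read 5′ to 3′ on the gene's strand. Capitals mark matches, on either strand, to letters bound by 3 myeloid regulators: GGG, any 5 bases and CC for NF-kB, GAGGAA for PU.1 and TGANTCA for AP-1. The windows are chr2:129371140-129371389 on the minus strand for Il1b, chr2:129309973-129310222 on the minus strand for Il1a, chr2:24336610-24336859 on the plus strand for Il1rn and chr11:59541319-59541568 on the plus strand for Nlrp3.
Il1b: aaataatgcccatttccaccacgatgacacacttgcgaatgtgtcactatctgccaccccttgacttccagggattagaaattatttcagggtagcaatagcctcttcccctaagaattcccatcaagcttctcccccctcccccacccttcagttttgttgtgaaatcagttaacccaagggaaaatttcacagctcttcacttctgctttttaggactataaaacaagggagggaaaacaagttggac
Il1a: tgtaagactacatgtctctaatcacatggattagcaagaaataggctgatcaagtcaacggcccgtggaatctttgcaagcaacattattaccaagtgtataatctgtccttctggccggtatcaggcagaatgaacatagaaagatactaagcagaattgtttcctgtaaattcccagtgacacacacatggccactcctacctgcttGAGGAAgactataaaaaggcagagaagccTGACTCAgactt
Il1rn: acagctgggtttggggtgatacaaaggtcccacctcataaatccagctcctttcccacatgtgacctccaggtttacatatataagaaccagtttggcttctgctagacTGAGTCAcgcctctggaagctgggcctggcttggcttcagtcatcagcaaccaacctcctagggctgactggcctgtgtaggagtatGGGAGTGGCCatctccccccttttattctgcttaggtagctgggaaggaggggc
Nlrp3: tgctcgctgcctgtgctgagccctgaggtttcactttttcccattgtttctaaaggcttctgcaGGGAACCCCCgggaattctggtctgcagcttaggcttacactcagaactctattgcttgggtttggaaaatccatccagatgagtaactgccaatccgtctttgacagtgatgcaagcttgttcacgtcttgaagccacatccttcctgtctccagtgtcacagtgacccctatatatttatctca
The Il1a window held a PU.1 match 41 bases before the start and an AP-1 match, TGACTCA, 12 bases before it. The Il1rn window held an AP-1 match, TGAGTCA, 141 bases before the start and an NF-kB match, GGGAGTGGCC, 54 bases before it. The Nlrp3 window held an NF-kB match, GGGAACCCCC, 186 bases before the start. The Il1b window held none of the 3, which says only that these letters are not in this window. Of the 32851 promoter windows of the same length, 45.8% held the NF-kB letters, 23.3% the PU.1 letters and 6.75% the AP-1 letters. A match is a description of the letters and not a binding site. Of the 10 members, 9 were matched to a RefSeq promoter.

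On build GRCm38 (GENCODE M21 annotation), Il1a lies at chr2:129299610-129309972 and Il1b at chr2:129364570-129371139, next to each other on the minus strand, and Il1rn lies at chr2:24336853-24351494 on the plus strand. Il1r2 lies at chr1:40074079-40125231, Il18 at chr9:50554827-50581840, Il18bp at chr7:102014885-102018690 and Nlrp3 at chr11:59541568-59566956. Casp1 lies at chr9:5298517-5307265, Pycard at chr7:127989708-127993867 and Gsdmd at chr15:75862327-75867408. All 10 are multi-exon genes. Il1a, Il1b, Il1r2, Il18, Il18bp and Pycard overlap an annotated gene on the other strand (Il1bos in the case of Il1b). Whether the counting used strand is not given in the sources used here, so reads of such partners cannot be told apart.

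The Ctrl, HHcy and WD libraries held 7512, 9753 and 8557 cell barcodes with 66789257, 105180370 and 93164076 UMIs (unique molecular identifiers, each counting 1 captured transcript). After limits on genes, mitochondrial share and markers of more than 1 lineage, 5502, 6543 and 5452 cells were used. Cells with markers of more than 1 lineage made up 8.88%, 19.8% and 18.7% of those that passed the first limits. The libraries shared 20 to 24 barcodes pairwise. Apoe, the gene deleted in all 3 groups, stood at 16.3 counts per 1000000 UMIs (CPM) in the Ctrl library and 19.3 in the WD library but at 374 in the library labelled HHcy, where 106 of 351 resident-like macrophages had at least 10 Apoe UMIs against 0 of 442 in Ctrl. That library therefore goes against its genotype label, and results are given with and without it where they rest on it. Where these 3′ tags lie relative to the deleted part of Apoe is not given in the sources used here, and tags outside it would check nothing.

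Levels are UMI sums of a subset in a library divided by all UMIs of that subset and library, in CPM. The 9 myeloid subsets large enough in each library comprised neutrophil-like cells (203, 430 and 289 cells in the Ctrl, HHcy and WD libraries), classical (362, 248 and 301) and non-classical monocyte-like cells (472, 226 and 402), and resident-like (442, 351 and 529), foamy-like (285, 138 and 565) and other macrophage-like cells (115, 63 and 506). The dendritic cells were Cd209a conventional (205, 140 and 218), Xcr1 conventional (143, 89 and 81) and mature dendritic cell-like cells (81, 36 and 114). The names carry "like" throughout even where the word is left out. The other macrophages were led by Ccl12, Ccl7 and the interferon genes Ifnb1, Ifit2, Ifit3 and Oasl1, came mostly from the WD library and may be that library rather than a cell type. Subsets were compared with edgeR's quasi-likelihood test on these sums, with a term for the library and Benjamini-Hochberg adjustment over the 10875 genes tested. These p-values measure the spread left after the library and subset terms, pooled over the 9 subsets of all 27 sums (16 residual degrees of freedom). They do not measure the spread between libraries, which also differ in treatment. A mean ± SD over the 3 libraries does show the spread between libraries, and treatment is part of it. Fold changes of subsets are log2 values ± standard error (SE). The fit scales each sum by a TMM factor and not by its total UMIs alone, so folds need not equal ratios of CPM. For neutrophils over classical monocytes the folds of the members lie above most of those ratios, so their size and direction depend on the scaling.

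Among the agonists, Il1b stood apart in neutrophils and was lowest in resident-like macrophages. In neutrophils it reached 5974 CPM in the Ctrl library, 9263 in HHcy and 8412 in WD. The same order held classical monocytes at 1767, 2518 and 1783 CPM and resident-like macrophages at 78.3, 93.0 and 129. The neutrophil values lay above those of every other subset in each library, and the resident-like values lay below them. Non-classical monocytes (1662 ± 301 CPM, SD, n = 3 libraries), foamy-like macrophages (1592 ± 285), classical monocytes (2023 ± 429) and Cd209a dendritic cells (2151 ± 164) formed the middle, where each overlapped its nearest neighbour in the order of levels. Il1b was 2.58 ± 0.29 log2 higher in neutrophils than in classical monocytes (adjusted p = 1.88e-08, edgeR), 4.53 ± 0.32 log2 lower in resident-like macrophages than in classical monocytes (adjusted p = 2.86e-12), and 4.09 ± 0.32 log2 higher in foamy-like than in resident-like macrophages (adjusted p = 3.17e-11). Classical and non-classical monocytes differed by 0.30 ± 0.27 log2, which did not pass the test (adjusted p = 0.473).

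Il1a was a foamy-like macrophage and neutrophil transcript. It stood at 177, 137 and 175 CPM in foamy-like macrophages and at 89.1, 165 and 150 CPM in neutrophils of the Ctrl, HHcy and WD libraries, and these ranges overlapped. Classical monocytes held 51.1, 31.7 and 49.3 CPM, below both in every library. Il1a was 4.14 ± 0.37 log2 higher in foamy-like than in resident-like macrophages (adjusted p = 5.12e-10, edgeR) and 2.28 ± 0.31 log2 higher in neutrophils than in classical monocytes (adjusted p = 4.69e-07). A few cells carried most of its UMIs. In the neutrophils of the Ctrl library the 21 cells with most Il1a held 92.4% of its UMIs, and a single mature dendritic cell of the WD library held 59 of the 64 Il1a UMIs of that subset.

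Il18, the other cytokine whose precursor caspase-1 cleaves, had a different order. Xcr1 dendritic cells held 45.1, 41.6 and 62.3 CPM of Il18 in the Ctrl, HHcy and WD libraries and classical monocytes 32.3, 50.3 and 40.9 CPM. Neutrophils, which led for Il1b, held 4.24, 7.82 and 9.92 CPM. Il18 was 1.84 ± 0.35 log2 lower in neutrophils than in classical monocytes (adjusted p = 6.22e-05, edgeR), 2.06 ± 0.30 log2 higher in classical than in non-classical monocytes (adjusted p = 6.83e-06) and 1.63 ± 0.27 log2 higher in Xcr1 than in Cd209a dendritic cells (adjusted p = 4.31e-05). B cells, which outnumber the myeloid subsets, held 16.9, 8.35 and 12.9 CPM of Il18.

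**Figure D1:**
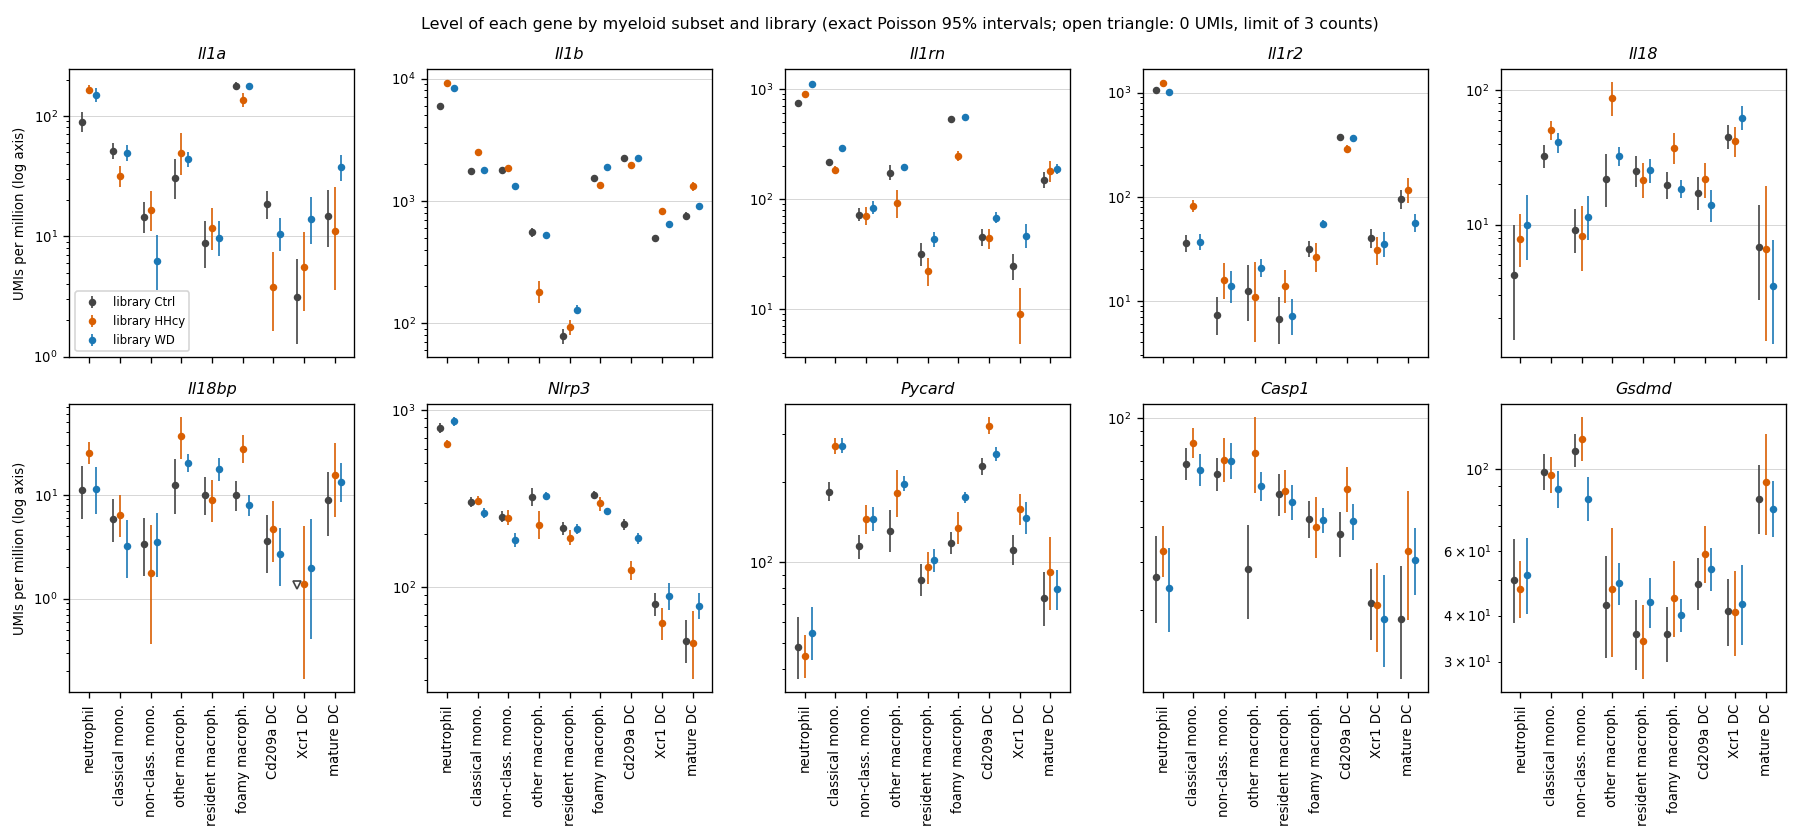
Levels in CPM (log axis) of each of the 10 genes in 9 myeloid subsets, with 1 point for each library (Ctrl, HHcy, WD) and its exact 95% Poisson interval, which covers counting error only. Neutrophils hold the highest Il1b, Il1rn, Il1r2 and Nlrp3 points and the lowest Pycard points, while Xcr1 dendritic cells and classical monocytes are among the highest for Il18.

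Of the inhibitors, Il1rn and Il1r2 were also highest in neutrophils, with different second places. Il1rn stood at 746, 903 and 1096 CPM in neutrophils of the Ctrl, HHcy and WD libraries and at 533, 247 and 553 CPM in foamy-like macrophages. Classical monocytes held 214, 181 and 289 CPM and resident-like macrophages 31.4, 22.0 and 43.2 CPM. The neutrophil range lay above all others, and the foamy-like value of the HHcy library lay within the range of classical monocytes. Il1rn was 2.67 ± 0.24 log2 higher in neutrophils than in classical monocytes (adjusted p = 2.57e-10, edgeR), 3.87 ± 0.27 log2 higher in foamy-like than in resident-like macrophages (adjusted p = 3.80e-12) and 1.87 ± 0.26 log2 higher in mature than in Cd209a dendritic cells (adjusted p = 1.94e-06).

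Il1r2, the decoy receptor, was carried by neutrophils and by Cd209a dendritic cells. Neutrophils held 1060, 1224 and 1007 CPM, Cd209a dendritic cells 374, 288 and 368 CPM, and classical monocytes 35.7, 81.4 and 36.5 CPM. These 3 ranges did not overlap. Il1r2 was 5.06 ± 0.30 log2 higher in neutrophils than in classical monocytes (adjusted p = 1.31e-13, edgeR), 3.19 ± 0.31 log2 lower in Xcr1 than in Cd209a dendritic cells (adjusted p = 6.29e-09) and 1.88 ± 0.30 log2 lower in mature than in Cd209a dendritic cells (adjusted p = 1.13e-05). With cells thinned to 1000 UMIs, 54.6%, 60.8% and 59.8% of neutrophils and 22.9%, 17.9% and 23.9% of Cd209a dendritic cells had an Il1r2 UMI, against 0.861% to 1.18% of B cells. Il1r2 was itself among the leading genes of the smallest neutrophil cluster, although it had no part in the clustering.

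Il18bp was scarce. It stood at 11.03, 25.3 and 11.3 CPM in neutrophils and at 9.84, 27.7 and 7.92 CPM in foamy-like macrophages of the Ctrl, HHcy and WD libraries. In Xcr1 dendritic cells of the Ctrl library it had 0 UMIs, which allows up to 1.35 CPM. Il18bp was 2.30 ± 0.41 log2 higher in neutrophils than in classical monocytes (adjusted p = 2.94e-05, edgeR) and 2.03 ± 0.53 log2 higher in mature than in Cd209a dendritic cells (adjusted p = 0.00368). It was the only member higher in resident-like macrophages than in classical monocytes, by 1.17 ± 0.40 log2 (adjusted p = 0.0146), and without the WD library this difference was 0.45 log2 (adjusted p = 0.455).

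The sensor Nlrp3 was highest in neutrophils as well, while the adaptor, protease and pore were not. Nlrp3 stood at 791, 646 and 866 CPM in neutrophils of the Ctrl, HHcy and WD libraries, at 304, 309 and 261 CPM in classical monocytes and at 80.3, 62.4 and 88.9 CPM in Xcr1 dendritic cells. Neutrophils lay above all other subsets in each library, and B cells held 8.38, 7.10 and 14.5 CPM. Nlrp3 was 1.98 ± 0.18 log2 higher in neutrophils than in classical monocytes (adjusted p = 3.76e-10, edgeR), 0.64 ± 0.18 log2 higher in foamy-like than in resident-like macrophages (adjusted p = 0.00394) and 1.38 ± 0.21 log2 lower in mature than in Cd209a dendritic cells (adjusted p = 6.28e-06). Resident-like macrophages kept 215, 190 and 213 CPM of Nlrp3, so among these genes Nlrp3 differed less from classical monocytes (0.71 ± 0.18 log2 lower, adjusted p = 0.00128) than Il1b did.

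Pycard, the adaptor ASC, was lowest in the cells with most Nlrp3. Neutrophils held 48.4, 44.7 and 54.5 CPM of Pycard in the Ctrl, HHcy and WD libraries, classical monocytes 183, 271 and 272 CPM, and Cd209a dendritic cells 228, 323 and 253 CPM. The neutrophil range lay below that of each other myeloid subset. Lymphocytes also carried it, with 67.6, 70.1 and 98.3 CPM in B cells and 201, 354 and 303 CPM in a T cell class that includes cells with natural killer genes. Pycard was 1.69 ± 0.13 log2 lower in neutrophils than in classical monocytes (adjusted p = 1.54e-11, edgeR), 1.55 ± 0.12 log2 lower in resident-like macrophages than in classical monocytes (adjusted p = 1.25e-11) and 1.56 ± 0.13 log2 lower in mature than in Cd209a dendritic cells (adjusted p = 2.23e-10).

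Casp1 and Gsdmd spanned smaller ranges of level. Casp1 stood at 68.0, 81.1 and 64.7 CPM in classical monocytes, at 26.3, 32.8 and 24.1 CPM in neutrophils and at 21.2, 20.8 and 18.6 CPM in Xcr1 dendritic cells. Monocytes of both kinds overlapped for Casp1, while neutrophils, mature and Xcr1 dendritic cells formed the lower end of the myeloid subsets. B cells held 21.6%, 35.0% and 9.69% of the Casp1 UMIs of all cells used. With cells thinned to 1000 UMIs, 1.53%, 3.54% and 1.45% of neutrophils and 1.70%, 2.22% and 2.27% of B cells had a Casp1 UMI. The neutrophil share thus did not stand apart from that of B cells. Casp1 was 0.71 ± 0.18 log2 lower in neutrophils than in classical monocytes (adjusted p = 0.00166, edgeR) and 1.03 ± 0.20 log2 lower in Xcr1 than in Cd209a dendritic cells (adjusted p = 2.70e-04). Gsdmd stood at 112, 121 and 82.9 CPM in non-classical monocytes, at 98.1, 96.4 and 88.2 CPM in classical monocytes and at 35.6, 34.1 and 43.5 CPM in resident-like macrophages. Both monocyte kinds overlapped for Gsdmd, and mature dendritic cells (83.1, 92.1 and 78.1 CPM) lay above Cd209a dendritic cells. B cells held 21.6%, 34.9% and 10.1% of the Gsdmd UMIs of all cells used. Gsdmd was 0.81 ± 0.14 log2 higher in mature than in Cd209a dendritic cells (adjusted p = 5.90e-05, edgeR) and 1.5 ± 0.13 log2 lower in resident-like macrophages than in classical monocytes (adjusted p = 1.90e-10). Neutrophils and classical monocytes differed in Gsdmd by -0.32 ± 0.14 log2, which missed the threshold (adjusted p = 0.0519). Without TMM scaling Gsdmd was called lower in neutrophils. The CPM of Casp1 in these 2 subsets also lie further apart than its fold.

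**Figure D2:**
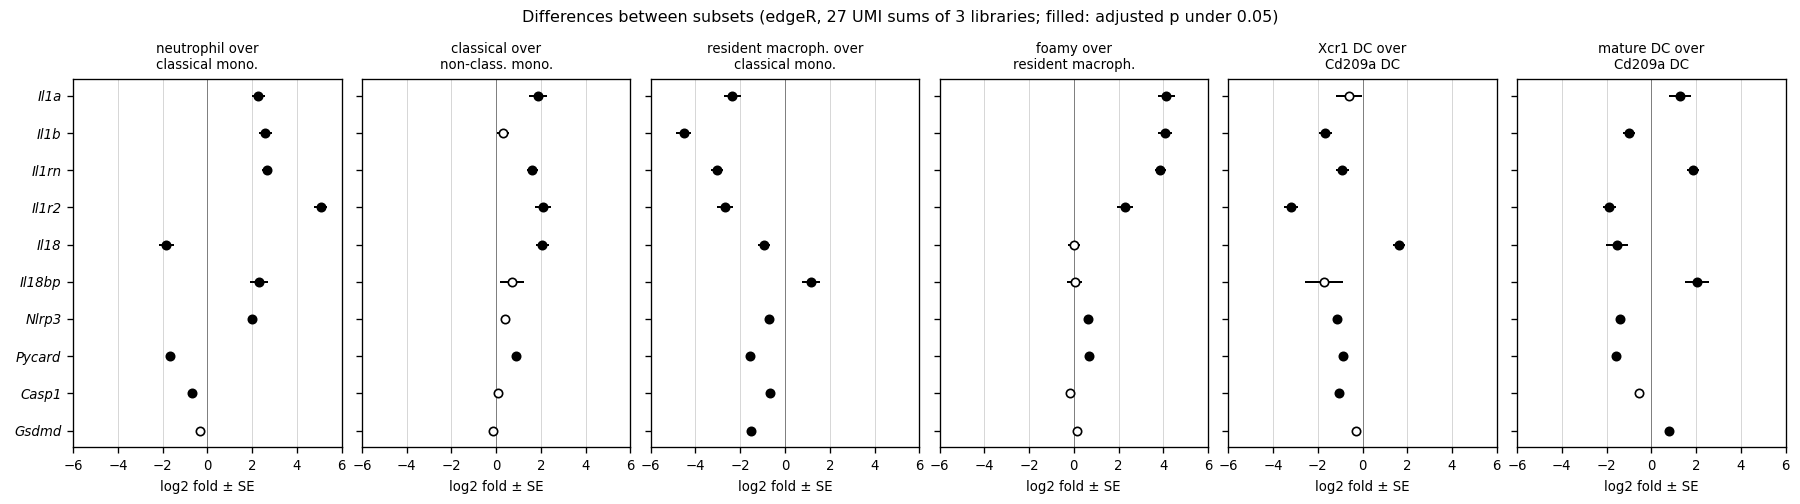
Log2 fold changes with their SE for each of the 10 genes in 6 comparisons of myeloid subsets, from edgeR's quasi-likelihood test over 3 libraries, with filled points where the adjusted p was under 0.05. Il1a, Il1b and Il1rn move together to the right in foamy-like over resident-like macrophages, while Pycard and Il18 lie to the left in neutrophils over classical monocytes.

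Counted over the 10 members, neutrophils exceeded classical monocytes for 6 and lay below them for 3, beside 26.6% of all genes tested called higher and 27.7% called lower. The members' median log2 difference was 2.13, beside -0.07 over all genes tested. Classical monocytes exceeded non-classical monocytes for 5 members (Il1r2, Il18, Il1a, Il1rn, Pycard) and lay below for 0, beside 12.2% and 12.5% of all genes. Resident-like macrophages exceeded classical monocytes for 1 and lay below for the other 9, beside 27.8% and 28.2% of all genes, with a median of -1.52 against 0.03 over all genes. Foamy-like macrophages exceeded resident-like macrophages for 6 (Il1a, Il1b, Il1rn, Il1r2, Pycard, Nlrp3) and lay below for 0, beside 24.7% and 22.5%. Mature dendritic cells exceeded Cd209a dendritic cells for 4 (Il18bp, Il1rn, Il1a, Gsdmd) and lay below for 5 (Il1r2, Pycard, Il18, Nlrp3, Il1b), beside 17.0% in each direction. Xcr1 dendritic cells exceeded Cd209a dendritic cells for 1 (Il18) and lay below for 6, beside 10.5% and 12.1%. Without the library labelled HHcy, the call that was lost was Il1a in mature over Cd209a dendritic cells (1.16 log2, adjusted p = 0.0504). That call was marginal with all 3 libraries too (1.27 ± 0.50 log2, adjusted p = 0.0482), and without the WD library it was 0.31 log2. A single cell held most of the 64 Il1a UMIs of WD mature dendritic cells, so the call leans on that cell. Il1b and Il18 in the same comparison missed the threshold without the Ctrl or without the WD library (adjusted p = 0.0639 to 0.149), Il18bp without the WD library (adjusted p = 0.0714), and Il1rn in Xcr1 over Cd209a dendritic cells without the Ctrl library (adjusted p = 0.107). With cells of up to 20% mitochondrial UMIs let in, Il1a in classical over non-classical monocytes was -0.19 log2 (adjusted p = 0.753).

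A list of 48 other genes of the pathway (sensors, caspases, regulators, cytokines, receptors, signalling), of which 38 had enough UMIs to test, moved in both directions. In neutrophils over classical monocytes 18 rose and 10 fell, beside 26.6% and 27.7% of all genes tested. Il1f9, which encodes the IL-1 family agonist IL-36gamma, stood at 439, 654 and 793 CPM in neutrophils of the Ctrl, HHcy and WD libraries and at 3.69, 5.13 and 6.67 CPM in classical monocytes (7.52 log2). Il18rap, an IL-18 receptor chain, stood at 143, 129 and 149 CPM against 2.15, 5.77 and 2.61 CPM (5.92 log2). Nlrp12, another sensor of the NLR family, stood at 22.9, 27.6 and 24.8 CPM in neutrophils and had 0 UMIs in classical monocytes of all 3 libraries, which allows up to 0.961 CPM there. Il1f9 was among the leading genes of the largest neutrophil cluster. Serpinb1a, an inhibitor of neutrophil proteases, rose in neutrophils by 4.08 log2.

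The other comparisons had fewer calls on the list, and the shares of all genes called higher and lower are given beside each. Classical over non-classical monocytes had 5 higher and 9 lower (12.2% and 12.5% of all genes). The pyrin sensor Mefv was 1.41 log2 higher and Irak3, a brake on IL-1 receptor signalling, 0.84 log2 lower. Resident-like macrophages over classical monocytes had 8 higher and 16 lower (27.8% and 28.2% of all genes). These were led by Mefv (5.05 log2 lower) and by the IL-33 receptor Il1rl1, at 38.1, 30.5 and 24.5 CPM against 1.85, 0.961 and 0 CPM. Txnip, a thioredoxin-binding protein known to interact with NLRP3, stood at 668, 670 and 626 CPM in resident-like macrophages and at 62.8, 53.2 and 58.9 CPM in classical monocytes (3.28 log2 higher). In foamy-like over resident-like macrophages 9 rose and 11 fell (24.7% and 22.5% of all genes), with Mefv 2.91 log2 higher and Txnip 2.53 log2 lower. Mature over Cd209a dendritic cells had 5 higher and 13 lower (17.0% of all genes in each direction). The higher ones were led by the guanylate-binding proteins Gbp5 (3.18 log2) and Gbp2 (3.11 log2). Xcr1 over Cd209a dendritic cells had 0 higher and 14 lower (10.5% and 12.1% of all genes). The IL-36 receptor Il1rl2 had 0 UMIs in Xcr1 cells of each library and stood at 9.06, 3.77 and 4.38 CPM in Cd209a cells.

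Genes that tissue digestion is known to switch on moved with some of these comparisons. Of 19 such genes, 14 were higher and 1 was lower in resident-like macrophages than in classical monocytes (27.8% and 28.2% of all genes). In foamy-like against resident-like macrophages 1 was higher and 14 were lower (24.7% and 22.5%). Neutrophils against classical monocytes had 8 higher and 5 lower (26.6% and 27.7%), and classical against non-classical monocytes 3 and 3 (12.2% and 12.5%). Mature against Cd209a dendritic cells had 0 and 6 (17.0% each), and Xcr1 against Cd209a dendritic cells 7 and 0 (10.5% and 12.1%). The summed level of the 19 genes was 44142, 39174 and 37469 CPM in resident-like macrophages of the Ctrl, HHcy and WD libraries. It was 22448, 17384 and 21480 CPM in classical monocytes and 18664, 19211 and 17229 CPM in foamy-like macrophages. Of these 3 subsets, the one with the most of these transcripts held the least Il1b. The part of these transcripts in any of the comparisons was not tested. Of 15 genes that NF-kB is known to induce, 10 were higher and 1 lower in neutrophils than in classical monocytes, and 10 were higher and 1 lower in foamy-like than in resident-like macrophages. In resident-like macrophages against classical monocytes 0 of these 15 were higher and 9 were lower. Classical against non-classical monocytes had 4 higher and 1 lower, mature against Cd209a dendritic cells 6 and 1, and Xcr1 against Cd209a dendritic cells 1 and 8. The shares of all genes beside these counts are those given above for the same comparisons.

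Shares of cells with an Il1b UMI at a fixed depth gave the same order for neutrophils, classical monocytes and resident-like macrophages. With each cell thinned to 1000 UMIs, 63.8%, 84.4% and 83.7% of neutrophils in the Ctrl, HHcy and WD libraries had an Il1b UMI. Classical monocytes had 48.9%, 66.0% and 47.2%, and resident-like macrophages 6.39%, 5.17% and 6.25%. Non-classical monocytes had 61.6%, 57.7% and 49.7%, so in Ctrl they lay near neutrophils and above classical monocytes. The resident-like share lay beside that of T cells (6.98%, 4.66% and 6.21%), a class that should lack Il1b, and above that of B cells (2.28% to 3.52%). At this depth it thus did not stand apart from the T cell share. The part of RNA from other cells in it was not tested. Median depths were 4810, 6158 and 6485 UMIs per resident-like macrophage and 4490, 6190 and 5268 per T cell. Unthinned, 74.4%, 89.3% and 89.97% of neutrophils had an Il1b UMI. The Ctrl share lay below those of non-classical (81.6%) and classical monocytes (76.2%) and of Cd209a (78.5%) and Xcr1 dendritic cells (78.3%). In HHcy and WD the neutrophil share was the highest of the myeloid subsets. The lead of neutrophils in level was thus not a lead in the share of cells in Ctrl. Of neutrophils with an Nlrp3 UMI, 95.1%, 97.8% and 98.2% also had an Il1b UMI, and of those with an Il1rn UMI, 90.9%, 96.9% and 96.7% did.

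The balance of agonist to inhibitor transcripts was set out as the UMIs of Il1b for each UMI of an inhibitor in the same cells. Neutrophils held 8.003, 10.3 and 7.67 Il1b UMIs for each Il1rn UMI in the Ctrl, HHcy and WD libraries, foamy-like macrophages 2.89, 5.42 and 3.43, and Cd209a dendritic cells 50.6, 44.7 and 33.0. Cd209a dendritic cells, with little Il1rn, were instead near neutrophils in Il1b per Il1r2 UMI, at 6.03, 6.81 and 6.07 against 5.63, 7.57 and 8.35. Classical monocytes held 49.5, 30.9 and 48.8 Il1b UMIs for each Il1r2 UMI. The library labelled HHcy had the highest Il1b per Il1rn ratio of the 3 in 7 of the 9 subsets, classical monocytes among them (13.9 against 8.25 and 6.16), and the lowest in the other macrophages (2.0 against 3.20 and 2.71). These are ratios of UMIs between 2 genes that a 3′ kit may capture with unequal efficiency, so they compare subsets and not absolute amounts.

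**Figure D3:**
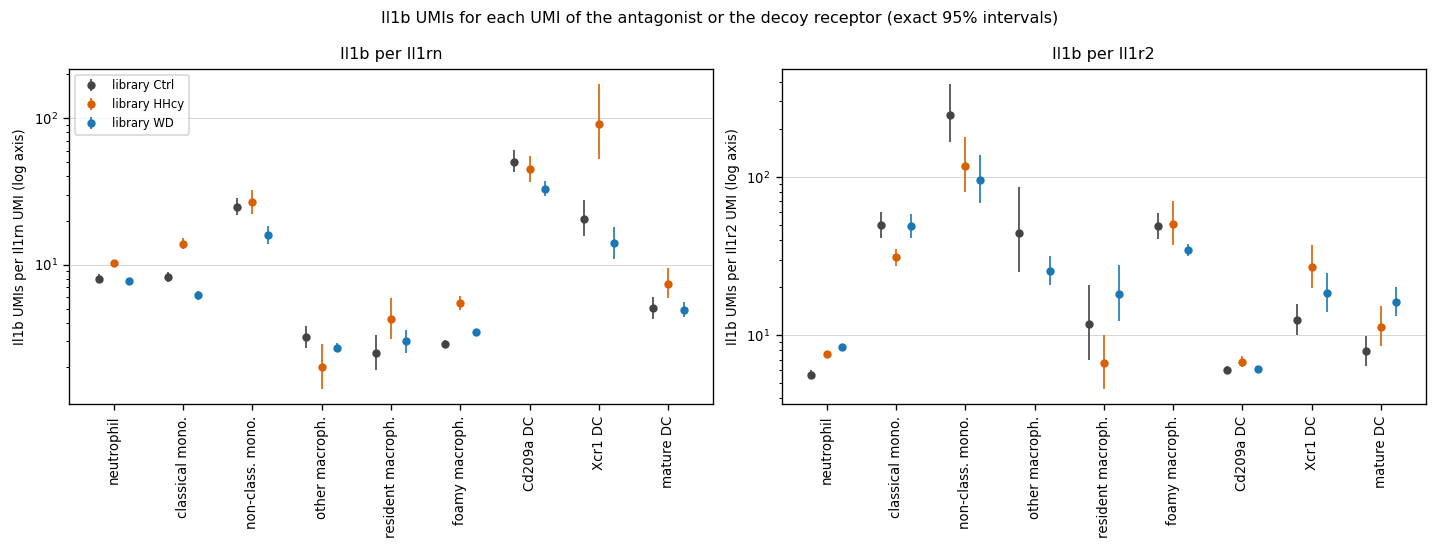
Il1b UMIs for each Il1rn UMI and for each Il1r2 UMI (log axes) in the 9 myeloid subsets, with 1 point for each library that had at least 10 UMIs of both genes and its 95% counting interval. Cd209a dendritic cells hold 33.0 to 50.6 Il1b UMIs for each Il1rn UMI but only 6.03 to 6.81 for each Il1r2 UMI.

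Between libraries, a ratio past 2-fold was counted with no test, since each group has 1 library, and its exact 95% interval covers counting error only. In HHcy over Ctrl 12 of 84 measured pairs of a member and a subset lay past 2-fold, and in WD over Ctrl 4 of 87. With barcodes of more than 1 lineage kept, the counts were 5 of 77 and 2 of 79. The background was the share of all measured genes past 2-fold in the same subset. For HHcy it was 15.7% in neutrophils, 4.49% in classical monocytes, 2.74% in non-classical monocytes, 8.57% in other macrophages, 3.58% in resident-like macrophages, 5.07% in foamy-like macrophages, 5.20% in Cd209a dendritic cells, 4.96% in Xcr1 dendritic cells and 9.69% in mature dendritic cells. For WD the same shares were 6.48%, 3.75%, 3.12%, 7.24%, 3.04%, 4.00%, 4.52%, 5.03% and 7.46%. With cells of at least 10 Apoe UMIs left out, 12 pairs lay past 2-fold in HHcy over Ctrl, and 12 pairs were in both counts. That step took out 106 resident-like macrophages of the HHcy library. It took out only 2 neutrophils, 3 other macrophages and 0 Xcr1 or mature dendritic cells, so the count could hardly change there. Cells that express little Apoe are kept, so equal counts do not check the genotype.

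In neutrophils Il1b was higher in both treated libraries, and the mix of neutrophil clusters moved with it. The log2 ratio of Il1b was 0.63 (0.59 to 0.67) in HHcy over Ctrl and 0.49 (0.45 to 0.54) in WD over Ctrl. Il1a was 0.89 (0.58 to 1.21) and 0.75 (0.41 to 1.11) and Il1rn 0.27 (0.16 to 0.39) and 0.55 (0.43 to 0.68). The median of all genes in neutrophils was itself shifted, by -0.30 in HHcy and -0.08 in WD, and relative to it Il1b was 0.93 and 0.57 higher. Nlrp3, at -0.29 in HHcy, was 0.01 relative to that median, so its direction depends on the scaling. Just 1 of the 10 members, Il18bp (1.2), lay past 2-fold in HHcy neutrophils.

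The neutrophils were 3 clusters. The largest, led by Retnlg, Cxcr2 and G0s2, held 48.8% of Ctrl neutrophils and 75.3% and 75.4% of those in HHcy and WD, and a cluster led by Camp, Ngp and Ltf, genes of immature neutrophil granules, held 42.4%, 19.8% and 18.7%. Within the Retnlg cluster Il1b stood at 13117, 13111 and 13124 CPM in the Ctrl, HHcy and WD libraries. In CPM, Il1b was thus nearly equal in the 3 libraries there. Over Ctrl, its log2 ratio was -0.00 (-0.04 to 0.04) for HHcy and 0.00 (-0.05 to 0.05) for WD. Across all genes of this cluster the median was -0.22 for HHcy and -0.08 for WD. Il1b lay above that median in both, further above it in HHcy, so its near equality depends on the scaling. In the Camp cluster Il1b stood at 458, 926 and 400 CPM, so HHcy was 1.02 log2 higher and WD was not. Cluster shares between single libraries were not tested.

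Nlrp3 within the same Retnlg cluster did differ. It stood at 1844 CPM in Ctrl, 886 in HHcy and 1319 in WD, log2 ratios of -1.06 (-1.18 to -0.93) and -0.48 (-0.62 to -0.35). Both treated libraries lay below Ctrl, beside a median over all genes in that cluster of -0.22 and -0.08 and 14.3% and 8.94% of genes past 2-fold. Casp1 and Il18bp were instead highest in HHcy there. Casp1 stood at 14.6, 41.7 and 14.5 CPM (6, 72 and 12 UMIs) in Ctrl, HHcy and WD. Il18bp stood at 7.31, 30.7 and 13.3 CPM (3, 53 and 11 UMIs), so both Ctrl values rest on few UMIs. Il1r2 in this cluster stood at 1934, 1656 and 1409 CPM and Il1rn at 1596, 1295 and 1708 CPM. In CPM, Il1r2 was thus lower in both treated libraries while Il1rn was lower in HHcy alone. The HHcy differences of Il1r2 and Il1rn are small beside the all-gene median of -0.22, so their direction depends on the scaling.

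**Figure D4:**
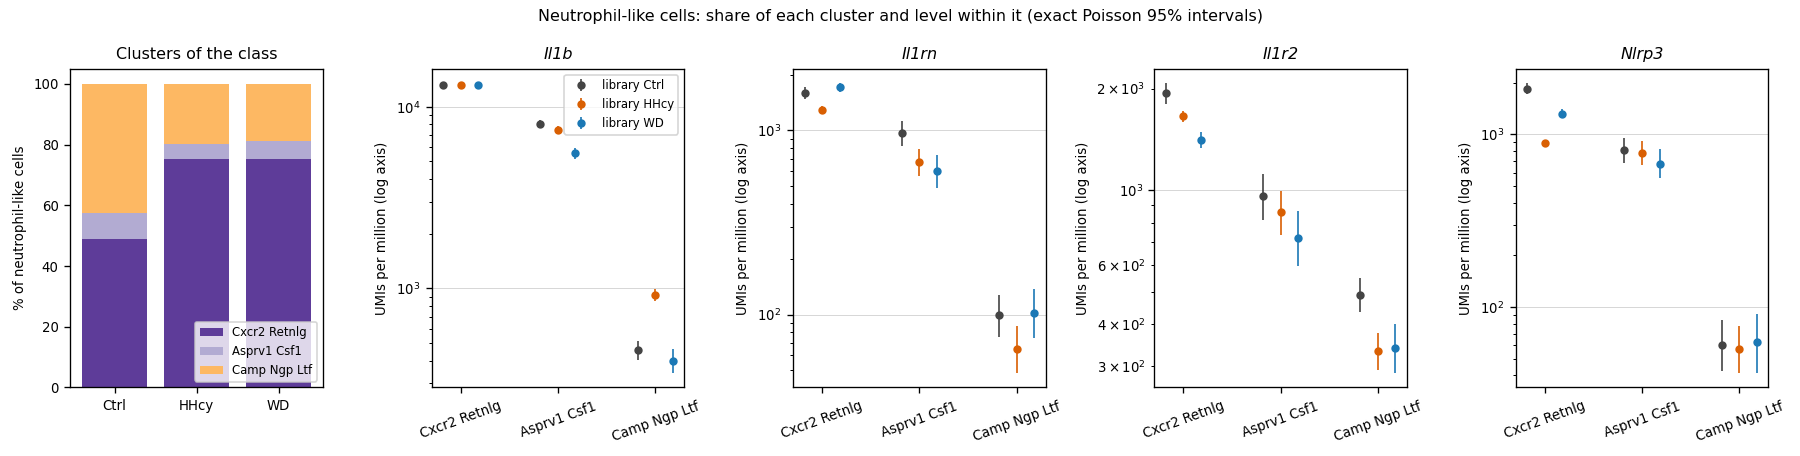
Shares of the 3 neutrophil clusters among the neutrophils of each library (bars, %), beside levels in CPM (log axes, 95% Poisson intervals) of Il1b, Il1rn, Il1r2 and Nlrp3 in each cluster and library. Il1b in the largest cluster lies between 13111 and 13124 in all 3 libraries, while Nlrp3 there falls in the order 1844, 1319, 886 for Ctrl, WD and HHcy.

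In monocytes Il1r2 was the member past 2-fold in the library labelled HHcy. Il1r2 was 1.19 log2 higher in HHcy over Ctrl in classical monocytes (0.87 to 1.52, from 81.4 and 35.7 CPM), 1.13 in non-classical monocytes and 1.05 in resident-like macrophages, and in the last 2 subsets the levels stayed under 20 CPM. The summed level of 12 neutrophil markers moved the same way, at 1121 against 658 CPM in classical monocytes, 775 against 628 in non-classical monocytes and 659 against 258 in resident-like macrophages. In HHcy all 12 were detected in each of these, and in Ctrl 10, 11 and 11. Neutrophils held the highest Il1r2, and their part in these ratios was not tested. Il1b in classical monocytes was 0.51 (0.46 to 0.56) in HHcy and 0.01 (-0.04 to 0.06) in WD. Pycard was higher in both treated libraries in classical monocytes, by 0.56 (0.41 to 0.72) and 0.57 (0.42 to 0.72). In non-classical monocytes of the WD library Il1b (-0.45), Nlrp3 (-0.43), Gsdmd (-0.43) and Il1a (-1.21) all lay below Ctrl, with intervals on 1 side of 0, while Pycard lay above (0.35). The largest of these, Il1a, rested on 16 and 48 UMIs.

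Foamy-like macrophages of the library labelled HHcy held less Il1rn. The level was 533 CPM in Ctrl, 247 in HHcy and 553 in WD, a log2 ratio of -1.11 (-1.27 to -0.95) in HHcy and 0.05 (-0.02 to 0.13) in WD. Il18bp went the other way in HHcy, at 27.7 against 9.84 CPM (1.49, 0.83 to 2.16), but not in each of the clusters that made up the foamy-like cells. Foamy-like macrophages were 2 clusters. The first, led by Mmp12, Nes and Trem2, held 61.4%, 77.5% and 54.9% of them in Ctrl, HHcy and WD, and the other, led by Gpnmb, Spp1 and Inhba, held the rest. Il1rn was lower in HHcy within each of them, at 181 against 100 CPM (-0.86) in the Trem2 cluster and at 1018 against 615 CPM (-0.73) in the Spp1 cluster. The Spp1 cluster also held more Il1b, at 2656, 1952 and 2815 CPM against 726, 1093 and 997 CPM in the Trem2 cluster. Of the foamy-like cells in HHcy, 31 lay in the Spp1 cluster, which held 35 of their 44 Il18bp UMIs. Il18bp stood there at 77.4 CPM in HHcy against 9.25 in Ctrl, and in the Trem2 cluster at 7.92 against 10.3 CPM. An Il18bp UMI was found in 13 of 138 foamy-like cells in HHcy and 21 of 285 in Ctrl. The HHcy ratio of Il18bp thus rests on few cells, which its counting interval does not cover. The Apoe difference between the libraries moves with these values too, and its part in the result was not tested.

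Among the other macrophages 4 members lay past 2-fold in HHcy over Ctrl, which compares 63 with 115 cells: Il18 (1.99, 1.23 to 2.81), Il18bp (1.54, but -0.96 at a finer clustering), Casp1 (1.40) and Il1b (-1.61, -1.93 to -1.30). Il1b there stood at 553 CPM in Ctrl, 182 in HHcy and 526 in WD. In WD Casp1 alone passed (1.01, 0.44 to 1.64). Since most cells of that cluster came from the WD library, these ratios may compare different cells.

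In dendritic cells the ratios past 2-fold were those of Il1a and Il1rn. In Cd209a dendritic cells Il1b stood at 2258, 1962 and 2232 CPM, Nlrp3 at 226, 125 and 189 CPM (-0.86 in HHcy) and Pycard at 228, 323 and 253 CPM (0.50 in HHcy). Il1a fell past 2-fold there in HHcy (-2.29), from 18.4 to 3.77 CPM (57 and 8 UMIs). In Xcr1 dendritic cells Il1rn was -1.43 in HHcy (1.15 with barcodes of more than 1 lineage kept). Il1a there was 2.14 in WD, from 7 UMIs in Ctrl and 21 in WD. In mature dendritic cells Il1a was 1.35 in WD, where a single cell held most of the 64 UMIs. Il1b in mature dendritic cells stood at 750, 1315 and 915 CPM and in Xcr1 dendritic cells at 501, 820 and 648 CPM, highest in HHcy in both. Neutrophil markers moved with these values. All 12 markers were detected in HHcy mature dendritic cells with a sum of 16734 CPM, against 9 of 12 and 101 CPM in Ctrl and 11 of 12 and 994 CPM in WD. In Xcr1 dendritic cells the sums were 90.2, 1481 and 121 CPM, with 11, 12 and 9 of the 12 detected, and the part of neutrophil RNA in either Il1b value was not tested.

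**Figure D5:**
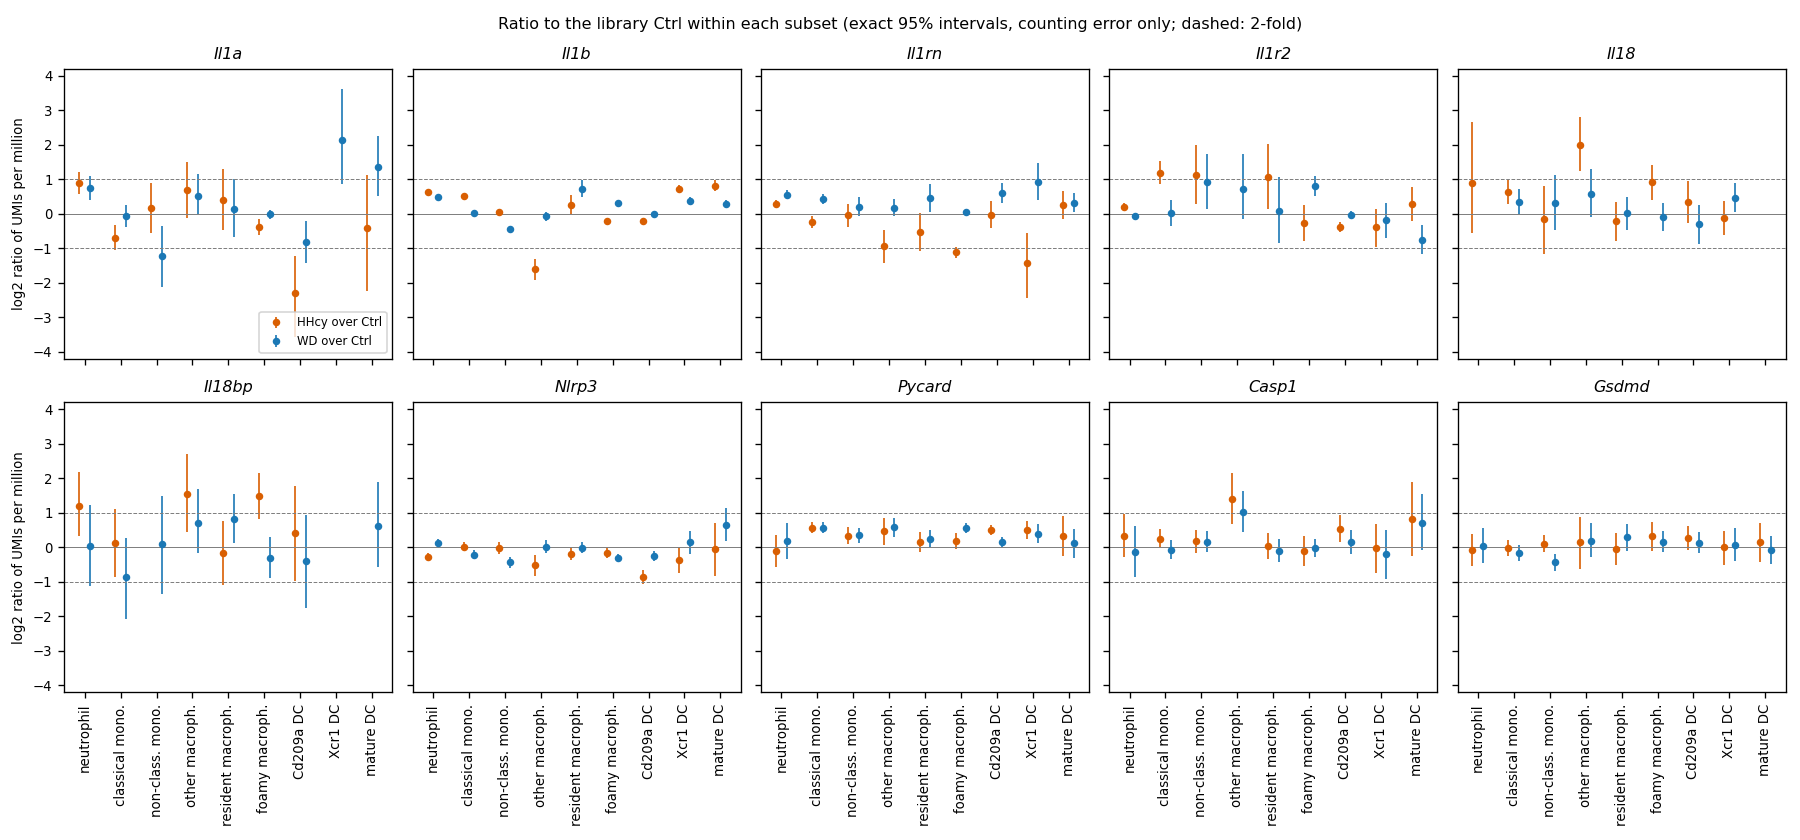
Log2 ratios of HHcy over Ctrl and of WD over Ctrl for the 10 genes in 9 myeloid subsets, with exact 95% intervals for counting error and dashed lines at 2-fold. Most points lie inside the lines, and the Il1rn ratio of foamy-like macrophages in HHcy (-1.11) lies outside with its interval short.

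The subsets that held the Il1b UMIs of a library differed between libraries. Neutrophils held 16.9%, 47.9% and 19.4% of the Il1b UMIs of all cells used in the Ctrl, HHcy and WD libraries, and foamy-like macrophages 14.3%, 4.1% and 27.8%. For Il1r2 the neutrophil share was 38.0%, 65.8% and 32.4%. For Il1a the foamy-like share was 49.3%, 17.1% and 55.2%. These shares combine the number of cells of a subset, their UMIs and the level of the gene.

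The genes most like each member were found over 28 sums of named myeloid subsets and libraries, among 5557 genes with a mean of at least 20 CPM, by Pearson's correlation of log2(CPM + 10). Sums of 1 subset share their cell type and sums of 1 library share their library, so the values are a description. Il1a and Il1rn were among the 3 nearest genes of each other (r = 0.89), and Alas1, the first enzyme of haem synthesis, headed both lists (0.92 and 0.93). Il1b was nearest to Srgn (0.90), Vasp (0.90) and Snx20 (0.88), and Il1r2 to Ifitm1 (0.93), Lmnb1 (0.90) and S100a11 (0.87). Nlrp3 was nearest to Rabgef1 (0.94), Cd300lb (0.92) and Lilrb4a (0.92). Casp1 was nearest to Ms4a6c (0.88), Ms4a6b (0.88) and Zeb2os (0.86), Gsdmd to Usp3 (0.90), Pot1b (0.89) and Tmem131 (0.89), and Pycard to Mcts1, Ndufs8 and Mrpl58. Il18 and Il18bp had weaker neighbours, led by Ifi211 (0.82) and Arrb2 (0.81), and the next genes for Il18bp were the interferon-induced Ifit3 and Rsad2 (0.73 each).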

How the data were processed

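Per the file headers, the deposited values were UMI counts per gene and cell barcode from the authors' run of Cell Ranger 4.0.0; the submitters' processing notes name Cell Ranger 2.2.0 and mm10. The 10 genes, the lists and the tests were chosen with earlier results of these data known. Barcodes with fewer than 200 genes, over 10% mitochondrial UMIs, or markers of more than 1 of 5 lineages (the treatment of doublets; no caller was run) were left out. Cells were clustered in Python 3.11.15 (2000 variable genes without members or pathway genes, 30 principal components, 20 neighbours, Leiden with leidenalg 0.10.2 at resolution 1), all cells first and then myeloid cells, and clusters were named from at least 3 detected markers of fixed lists. UMI counts summed per subset and library (27 sums, 16 residual degrees of freedom) were tested with edgeR 4.0.16 in R 4.3.3 (quasi-likelihood, TMM, Benjamini-Hochberg, called under 0.05), which was tested on simulated data; DESeq2 1.42.0 was an alternative. Ratios between libraries used subsets with 20 cells and genes with 20 UMIs over both libraries, with exact 95% conditional binomial intervals; levels had Poisson and shares Clopper-Pearson intervals, and a count of 0 was given the limit of 3 counts. The text names all members, for each the 3 genes most correlated with it, and for each comparison at most the 4 pathway genes with the largest called change. Symbols are those of the files, where Il36g appears as Il1f9. Of the columns in the files, 0 lay outside the series.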

Additional observations from a re-analysis of the deposited data

Results flagged for a closer look

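In 5 cases, values were set aside because a gene moved in opposite directions, past counting error, in subsets of the same comparison, with at least 1 of those ratios past 2-fold. The highest and the lowest subset are given. None of these differences was tested, since each group has 1 library.

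In HHcy over Ctrl, Il1a was higher in neutrophils (0.89 log2) and lower in Cd209a dendritic cells (-2.29), a gap of 3.18. Il1b was higher in mature dendritic cells (0.81) and lower in the other macrophages (-1.61), a gap of 2.42. Il1rn was higher in neutrophils (0.27) and lower in Xcr1 dendritic cells (-1.43), a gap of 1.71. Il1r2 was higher in classical monocytes (1.19) and lower in Cd209a dendritic cells (-0.38), a gap of 1.57. In WD over Ctrl, Il1a was higher in Xcr1 dendritic cells (2.14) and lower in non-classical monocytes (-1.21), a gap of 3.35. The Xcr1 ratio rests on 7 UMIs in 7 of 143 Ctrl cells and 21 UMIs in 8 of 81 WD cells. The shares of cells with an Il1a UMI, 4.90% and 9.88%, had overlapping intervals. Counting error treats UMIs as independent, so it does not cover UMIs that sit in few cells.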

How the results depend on the processing

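Counts of genes called in a comparison of subsets moved by over 1.5 times only when a library was left out. Leaving out each library in turn gave 4825 to 5166 genes for neutrophils over classical monocytes (5903 with all), 1293 to 1998 for classical over non-classical monocytes (2678), 4840 to 5561 for resident-like macrophages over classical monocytes (6088), 3407 to 5034 for foamy-like over resident-like macrophages (5138), 2524 to 3252 for mature (3695) and 1518 to 2063 for Xcr1 over Cd209a dendritic cells (2458). The lowest counts came without the WD library for classical over non-classical monocytes and foamy-like macrophages and without the Ctrl library for Xcr1 dendritic cells; fewer sums enter these fits. Of 779 values of single genes or counts in these comparisons under alternatives, 736 kept direction and side of the threshold, 24 lost the threshold, 18 gained it and 1 reversed: Il1a in classical over non-classical monocytes was -0.19 log2 (adjusted p = 0.753) with up to 20% mitochondrial UMIs, where Il1rn was 0.38 (adjusted p = 0.176), and the cause was not tested. At resolution 2 that Il1a difference was 0.68 (adjusted p = 0.171). Without the WD library Il1b, Il18 and Il18bp in mature dendritic cells missed the threshold (adjusted p = 0.0730, 0.149 and 0.0714), and without the Ctrl library Il1b, Il18 and the Il1rn difference of Xcr1 dendritic cells did (adjusted p = 0.121, 0.0639 and 0.107). Nlrp3 in foamy-like macrophages was 0.41 (adjusted p = 0.0973) when members were allowed among the variable genes. Gsdmd in neutrophils was called lower without TMM (-0.93 log2).

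Pairs of a gene and a subset past 2-fold in HHcy over Ctrl numbered 6 of 44 with cells thinned to 1000 UMIs and 5 of 77 with barcodes of more than 1 lineage kept, against 12. In WD over Ctrl they numbered 2 with those barcodes kept and 7 with members among the variable genes, against 4. In HHcy over Ctrl, Il1rn in Xcr1 dendritic cells reversed to 1.15 with those barcodes kept, and Il18bp in the other macrophages to -0.96 at resolution 2; the cause was not tested. Of 331 such values under alternatives, 249 stayed within their interval and 80 moved. The share of neutrophils with an Il1b UMI moved from 63.8%, 84.4% and 83.7% to 74.4%, 89.3% and 89.97% without thinning, and to 80.5% in HHcy at 500 UMIs. Leaving out Apoe-high cells and taking the largest neutrophil cluster alone were chosen after seeing the data. Groups could not be compared in pairs because each has 1 library and the labels give no replicate numbers. Subsets were compared within libraries through the library term. Depth limits Il18, Il18bp and Il1a most, since several of their sums held under 20 UMIs.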

Other observations

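Cells outside the named myeloid subsets also carried these genes. A cluster led by Prg4, Saa3, Alox15 and Cxcl13, which matched no name of the fixed marker lists, held 114, 82 and 121 cells in the Ctrl, HHcy and WD libraries and the highest Pycard among the values given, 458, 595 and 600 CPM. Its Il1b was 247, 276 and 137 CPM and its Il1a 64.0, 125 and 80.5 CPM. A cluster led by Apoc2, Il10 and Spon1, also unnamed, held Il1b at 1968, 2904 and 962 CPM and Il1rn at 229, 336 and 163 CPM. Both genes were highest in HHcy and lowest in WD there, from 91 and 181 cells. A cycling cluster, which may mix cell types, held Il1b at 960, 383 and 1722 CPM with Il1rn at 5.95, 5.74 and 14.9 CPM. These values rest on 1 library a group and no difference between them was tested.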
